A study of Mus musculus with 36 samples.

Results

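Zfp266 encodes a KRAB zinc finger protein. Proteins of this family bind DNA through arrays of zinc fingers, and their KRAB domain recruits the corepressor TRIM28 (KAP1), which brings chromatin-silencing enzymes to the bound site. During reprogramming, the factors Oct4, Sox2, Klf4 and c-Myc drive fibroblasts to switch off their own programme and to pass through intermediate states, in which genes of unrelated cell types can be expressed for a time, before the pluripotency network is established. The comparison described here is between Zfp266 KO and control (WT) cells at day 7 of this process. Its members are 6 of the 36 libraries of the series, 3 KO and 3 WT, chosen by their labels.

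Both groups were reprogramming cells of mouse strain 129, labelled D7. They derived from mouse embryonic fibroblasts (MEFs) of the Cas9 TNG MKOS line, which carry a constitutive Cas9 transgene, a doxycycline-inducible cassette of the 4 factors linked to the fluorescent protein mOrange, and a Nanog-GFP reporter. The cells were transduced by lentivirus to express an sgRNA, which was non-targeting in the control group and directed at Zfp266 in the KO group, a day before doxycycline and vitamin C were added in ESC medium, and mOrange-positive cells were sorted for RNA. The Zfp266 KO group was therefore an edited population and not a clone, unedited cells may have remained in it, and wild-type fibroblasts grown with the reprogramming cells could enter the sort. The other groups used here are WT MEFs, WT cells at days 3 and 5, WT iPSCs and WT ESCs, and the KO cells at day 5, with 3 libraries in each. Nothing in the labels says whether libraries of a group came from separate animals, so p-values measure the spread between libraries. That spread was estimated for each gene over all 36 libraries of the series, not over the day 7 libraries alone.

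The 3 Zfp266 guides of the study's vector list are shown because they define where the gene was cut; the sources do not name the one used for these libraries. Each sequence is given 5′ to 3′, with the PAM that follows it on the strand of the guide in capitals. The strand is that of the transcript for sgR2 and sgR3 and the opposite one for sgR1.
Zfp266.sgR1: acagcactttccgccacctCGG
Zfp266.sgR2: caattatgccttaacacagAGG
Zfp266.sgR3: cagaagaatctataccgagAGG
Zfp266 lies on chromosome 9, at 20495068 to 20521417 on the minus strand of GRCm38. In its longest annotated transcript, which has 9 exons, sgR3 matched coding sequence of exon 6 (chr9:20505091-20505109, minus strand). The match of sgR1 was in coding sequence of exon 7 (chr9:20502049-20502067, plus strand), and that of sgR2 was in coding sequence of exon 9 (chr9:20500369-20500387, minus strand).

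The 6 libraries held 28457930 to 33236374 counts, and 3 counts corresponded to 2.63 to 3.09 normalised read counts, that is counts divided by the DESeq2 size factor of the library. Zfp266 itself stood at 1437, 1432 and 1535 normalised read counts in the WT libraries and at 1552, 1557 and 1501 in the KO libraries (log2FC 0.07, SE 0.08, FDR = 0.578). The ranges overlapped. Counting reads over the whole gene does not register small insertions or deletions at a cut site, so this value neither checks the labels nor measures the protein. In 1 library, WT replicate 1, the ribosomal RNA row CT010467.1 took 1.80% of counts against 0.143 to 0.455% in the other 5. Among rows with a WT mean of at least 100, this library in 12 exceeded 4 times the mean of the other 2 WT libraries, and 10 of them are among the lowered DEGs of neither class described below.

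Zfp266 KO changed the expression of 1760 genes at day 7 (DESeq2, FDR < 0.05, log2FC > |1|), 831 higher and 929 lower in KO. These were 3.95% and 4.42% of the 21020 genes tested, 8.37% together. Without the fold threshold, 2803 genes were higher (13.3%) and 3374 lower (16.1%). In 806 of the 831 raised DEGs all 3 KO libraries lay above all 3 WT libraries, and in 866 of the 929 lowered DEGs all lay below. The same separation was seen in 20.8% of all tested genes upward and in 26.6% downward. Without WT replicate 1 the DEGs numbered 1576, 720 higher and 856 lower, and without KO replicate 2, the library whose omission lowered the count most, they numbered 1342. A fold threshold placed inside the Wald test itself left 132, of which 117 were higher and 15 lower. Which direction held more DEGs depended on the fit. TMM scaling gave 877 higher and 843 lower, and edgeR gave 871 and 846. A fit of the day 7 groups alone gave 1445 DEGs, 766 higher and 679 lower. More raised DEGs had large unshrunken changes: 284 exceeded a log2FC of 2, against 120 of the lowered. Many of these ratios rest on low counts. The WT mean was under 10 in 276 of the 831 raised DEGs, and 20 of the 831 had no WT reads. In 237 of the 929 lowered DEGs the KO mean was under 10, and 11 of the 929 had no KO reads. Of the raised DEGs 675 were protein-coding, and of the lowered 835. Exons of 189 raised (22.7%) and 248 lowered DEGs (26.7%) overlapped a gene on the other strand. Of the DEGs named below, these are Suz12, Cbx7, Tcfl5, Dnmt3l, Tdrd5, Otx2, Msh6, Rad54b, Fbn1, Timp3, Nfix, Zeb2, Tgfb2, Bmp4, Tcf7l1, Notum, Sspn, Aldh2, Nectin2, Gramd1b, Atp1b1, Fgf15, Hecw1, Slurp1, Krt6a, Krt6b, Grhl2, Cldn3, Kcnq1, Gpr155, C530008M17Rik, Tmem263, Adam19, Chdh, Dtna, Zdbf2, Igf2, Pfkm, Ndufa4l2, Acsl6, Pdzd4 and the row CT010467.1. Mtf2, Ezh2, Pou5f1, Ccnd2, Setdb1, Fn1, Tbx18, Cdkn1a, Krt8 and Krt7, which are not DEGs, overlap such a gene too. Whether reads of the 2 strands were counted apart is not known for any of them. Levels are compared between samples and not between genes, and the gene lists used below share some members.

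**Figure D1:**
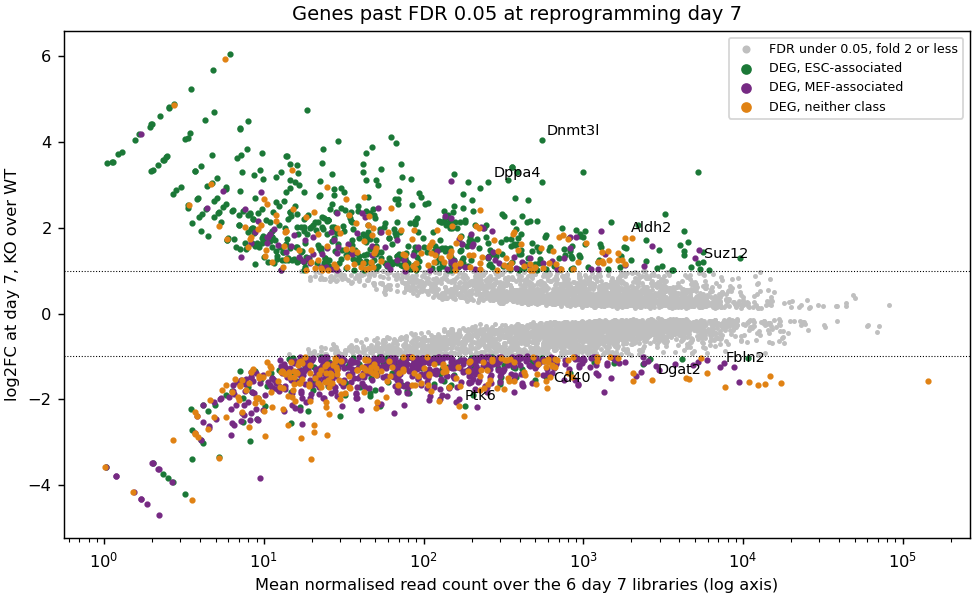
Each point is a gene past FDR 0.05 at day 7, plotted by its mean normalised read count over the 6 libraries (log axis) and its log2FC, KO over WT; colour gives the class of the 1760 DEGs. Green ESC-associated genes dominate above the upper dotted line (log2FC 1) and purple MEF-associated genes below the lower one (log2FC -1), with orange genes of neither class on both sides.

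Genes were next classed by an independent contrast, WT ESCs against WT MEFs at the same thresholds, which shares no library with day 7. Of the 831 raised DEGs, 575 (69.2%) were ESC-associated, 104 (12.5%) MEF-associated and 152 (18.3%) neither. Of the 929 lowered DEGs, 134 (14.4%) were ESC-associated, 556 (59.8%) MEF-associated and 239 (25.7%) neither. Among all tested genes the shares were 25.8%, 29.5% and 44.7%. A total of 391 DEGs thus belonged to neither class, and another 238 moved against the direction from MEF to ESC.

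The gene with the lowest FDR was Suz12, a core subunit of the Polycomb repressive complex PRC2, which trimethylates histone H3 lysine 27. It stood at 3071, 3576 and 3013 normalised read counts in WT and at 7243, 7806 and 6743 in KO (2.26-fold, log2FC 1.17, SE 0.06, FDR = 1.45e-77), close to its mean of 7663 in WT ESCs. Suz12 overlaps exons of Gm26563 on the other strand. As the strand setting of the counting is not given, reads of both genes may be mixed in this row. Jarid2, a PRC2 cofactor that helps to target the complex, was at 2817, 3301 and 2947 in WT and at 8442, 8474 and 7584 in KO (log2FC 1.43, SE 0.11, FDR = 3.31e-37). Of 13 PRC2 subunits and cofactors tested, 8 rose and 0 fell (median log2FC 0.49, against -0.04 for all genes). The others past FDR included Mtf2 (log2FC 0.88), Phf19 (2.06) and, by less, the catalytic subunit Ezh2 (0.26). Of 20 subunits of PRC1, the other Polycomb complex, 6 were higher and 4 lower. The lowered share was near the 16.1% of all tested genes, and the raised share was above their 13.3%. The PRC1 chromobox subunits Cbx7 (log2FC 1.46) and Cbx6 (1.03) rose, while Cbx2 (-0.55) fell.

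Pluripotency genes moved almost as a block. Of 25 naive and core pluripotency transcription factors, 22 rose and 1 fell, with a median log2FC of 1.37. Klf5, which sustains ESC self-renewal, was at 393, 452 and 451 in WT and 1007, 1247 and 1086 in KO (log2FC 1.37, SE 0.10, FDR = 2.03e-36). Zfp42 (Rex1), a marker of naive pluripotency, was at 1044, 1483 and 962 in WT and 3759, 4252 and 3420.5 in KO (log2FC 1.71, SE 0.16, FDR = 5.63e-24). No KO value of either overlapped WT. Esrrb, a nuclear receptor of the naive network, was 2.17-fold higher (log2FC 1.12, FDR = 1.08e-21), while Nanog rose by a log2FC of 0.92 (FDR = 8.86e-09) and stayed under the fold threshold. The exception was Tcfl5, a germline-expressed factor, at -1.19 (FDR = 4.09e-06).

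Of 30 pluripotency-linked signalling, RNA and surface genes, 18 rose and 0 fell. Dppa4, a chromatin protein of early embryos and pluripotent cells, was at 47.7, 78.5 and 35.0 in WT and at 408, 571 and 374 in KO (8.38-fold, log2FC 3.07, SE 0.20, FDR = 4.69e-47), still far under its mean of 4817 in WT ESCs. Its partner Dppa2 was at 32.5, 133 and 47.3 in WT and at 569, 899.9 and 621 in KO (log2FC 3.30, FDR = 7.16e-24). WT replicate 2 was the highest WT library for both. Dppa5b and Dppa5c were among the raised DEGs of largest change with a mean of at least 100 (log2FC 3.42 each), but they are near-identical copies of Dppa5a (3.29), and the division of reads between the 3 is uncertain. The growth factor Nodal (log2FC 2.21) and Fgf4 (1.56) also rose.

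The reprogramming factors themselves did not follow. Reads of the cassette and of the endogenous genes cannot be separated. Klf4 was at 23313, 19396 and 24234 in WT and at 12592, 12357 and 16717 in KO (log2FC -0.68, SE 0.18, FDR = 0.00118). Myc (log2FC -0.68, FDR = 0.00212) and Sox2 (-0.51, FDR = 0.0101) were lower as well, and all 3 showed no overlap between groups. Pou5f1 (Oct4) stood at 43216 to 48059.8 in WT and at 39969 to 46890.1 in KO (log2FC -0.03, FDR = 0.857). The part of the cassette's level in the other differences was not tested.

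Genes of DNA methylation and demethylation came up together with the pluripotency genes. Of 17 tested, 9 rose and 2 fell. Tet1, which oxidises 5-methylcytosine, was at 909.8, 1445 and 895 in WT and at 5901, 5330.1 and 4923 in KO (4.97-fold, log2FC 2.31, SE 0.18, FDR = 7e-35). Dnmt3l, a cofactor of the de novo methyltransferases in germ cells and ESCs, had the largest change of any raised DEG with a mean of at least 100, from 39.6, 126 and 22.6 in WT to 1201, 1186 and 713 in KO (16.5-fold, log2FC 4.04, SE 0.46, FDR = 2.48e-16). Exons of Aire overlap it on the other strand. Dnmt3b (log2FC 1.86) and Uhrf1 (0.91), which brings the maintenance methyltransferase to replicated DNA, were also higher.

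Germline genes rose more often than they fell. Of 34 germline and piRNA genes tested, 15 rose (44.1%, against 13.3% of all tested genes). A further 6 fell (17.6%), near the 16.1% of all tested genes. Piwil2, a PIWI protein of the piRNA pathway, was at 596, 669 and 411 in WT and at 2811, 2721 and 1801 in KO (log2FC 2.13, SE 0.24, FDR = 4.75e-17), above its means of 226 in WT ESCs and 223 in WT iPSCs. The X-linked homeobox gene Rhox5 rose from 142 to 687 on average (log2FC 2.27, FDR = 2.65e-07), as did Rhox6 and Rhox9 (2.13 and 2.06). Lower were genes of the tudor family, which act with PIWI proteins: Tdrd1 (log2FC -0.80), Tdrd5 (-1.13) and Tdrd6 (-1.11). Of 30 primed and germ layer genes tested, 10 rose and 1 fell. Otx2, a homeobox factor of the primed epiblast, was at 51.7, 84.6 and 20.6 in WT and at 426, 484 and 283 in KO (log2FC 2.93, SE 0.45, FDR = 3.2e-09).

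Genes of DNA replication, mitosis and repair rose by small amounts in most of their members. Of 63 cell cycle and replication genes, 46 rose and 2 fell (median log2FC 0.41), and of 35 DNA repair genes 29 rose and 1 fell (0.42), yet only 1 and 3 of them were DEGs. Ccnb2, a mitotic B-type cyclin, was at 1064, 1145 and 1026 in WT and at 2384, 2336 and 2190.5 in KO (log2FC 1.09, SE 0.08, FDR = 7.9e-40). Top2a, the topoisomerase that untangles chromosomes, was 1.64-fold higher, and the replicative helicase subunit Mcm3 was 1.66-fold higher. The mismatch repair gene Msh6 was 2.11-fold higher (FDR = 2.85e-22), and the DEG list also took in Rad54b (log2FC 1.10) and Rad51c (1.17). Ccnd2, a G1 cyclin of fibroblasts, went down (log2FC -0.87, FDR = 0.00109).

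Of 63 annotated histone genes tested, 0 rose, 30 fell and 33 did not pass (median log2FC -0.77). Those that fell were 14 of 17 genes of H2B, 9 of 12 of H4, 3 of 18 of H2A, 2 of 11 of H3 and 2 of 5 of the linker histone H1. The H2A genes differed from the others in sign, as 13 of the 18 had a positive log2FC, none past FDR. Hist1h2bc was at 809, 1011 and 959 in WT and at 388, 358 and 408 in KO (log2FC -1.27, SE 0.17, FDR = 1.92e-11). The linker histone gene Hist1h1c fell by a log2FC of -1.06 (FDR = 8.85e-05). The libraries were made from polyadenylated RNA, while replication-dependent histone mRNAs end without a poly(A) tail, so the values cover only their polyadenylated fraction. Copies of this family share sequence, and reads may be divided among them. The histone family was not among the fixed lists but came from a set of gene families matched by symbol.

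Genes of the corepressor pathway that KRAB zinc finger proteins use were mostly higher. Of 20 tested, 12 rose and 2 fell (median log2FC 0.32). Trim28, the corepressor itself, was at 13145, 12572 and 12844 in WT and at 18199, 19677 and 17004 in KO (1.42-fold, log2FC 0.51, FDR = 8.43e-14). The heterochromatin remodeller Atrx (log2FC 0.89), the HP1 protein gene Cbx1 (0.82) and Morc3 (0.61) also rose, while Setdb1, which trimethylates H3 lysine 9, changed by 0.29. The only DEG of the list was Zfp57 (1.23), a KRAB zinc finger protein that protects imprints.

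The lowered MEF-associated DEGs included matrix genes of fibroblasts. Fbln2, an extracellular matrix glycoprotein, was at 9591, 9799 and 11109 in WT and at 4257, 3971 and 4609.7 in KO (2.38-fold lower, log2FC -1.25, SE 0.10, FDR = 1.54e-34). Fbn1, which forms microfibrils, was at 12826, 13642 and 15833 in WT and at 4599, 3955 and 5433 in KO (log2FC -1.60, SE 0.19, FDR = 1.79e-15). The proteoglycan Dcn fell as well (-1.14). Of 38 fibroblast surface and matrix genes tested, 17 fell and 3 rose (median log2FC -0.82), and of 41 collagens 14 fell and 1 rose (-0.82). The exceptions were Ly6a (log2FC 1.48), S100a4 (0.69, with overlapping groups), Fn1 (0.55) and, among the collagens, Col18a1 (1.76), a basement membrane collagen. Of 39 matrix proteases and inhibitors, 9 fell and 3 rose, with Adamts12 (-1.41) and Timp3 (-1.21) leading.

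Classical fibroblast markers varied between libraries. The sum of 12 fibroblast markers was 48000.3, 45185 and 36411 normalised read counts in WT and 28093, 17614 and 13064 in KO, so the groups did not overlap. The same sum was 471237 in WT MEFs and 157 in WT ESCs. Only 4 of the 11 markers tested fell and 0 rose. Col1a1, at 13488, 13601 and 9848 in WT and 7911, 4837 and 2771 in KO, passed (log2FC -1.25, SE 0.41, FDR = 0.0107). Lum, another proteoglycan, was at 123, 52.4 and 22.6 in WT and at 136, 26.3 and 11.8 in KO (log2FC -0.19, SE 0.86, FDR = 0.911). Mmp3, chosen after its values were seen, ran from 9.08 to 285 within KO alone. In bulk RNA, fewer cells of a type and less RNA per cell cannot be told apart.

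Transcription factors of mesenchymal cells were also among the lowered genes. Of 44 mesenchymal transcription factors, 18 fell and 1 rose, 12 of them DEGs (median log2FC -0.63). Nfix was at 428, 364 and 412 in WT and at 215, 166 and 156 in KO (log2FC -1.17, SE 0.16, FDR = 1.61e-11). Alx4, a limb homeobox gene, was at 126, 136 and 212 in WT and at 50.2, 45.5 and 61.7 in KO (log2FC -1.59, FDR = 2.8e-08), and Zeb2, an inducer of the mesenchymal state, fell by a log2FC of -1.17 (FDR = 0.00154). The one raised member was Tbx18 (0.79). Hox genes, which record position along the body axes, showed 13 of 38 lower and 0 higher. Hoxb9 was at 104, 106 and 148 in WT and at 42.2, 38.5 and 68.1 in KO (log2FC -1.27, FDR = 7.19e-08). Of 30 genes of the contractile cytoskeleton 15 fell and 2 rose, among them Tagln2, which had a small change of narrow spread (-0.58, SE 0.05, FDR = 2.65e-28).

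Lists of developmental pathways held lowered and raised members. In the TGF-beta, BMP and YAP list 13 of 42 fell and 3 rose. Tgfb2 was lower (log2FC -1.41), while Bmp4 (1.81) and the inhibitory Smad7 (0.85) were higher. In the Notch and Hedgehog list 10 of 26 fell and 1 rose, with the fringe enzyme genes Lfng (2.83-fold lower) and Mfng (log2FC -1.79) and the Hedgehog transducer Smo (-0.78). In the Wnt list 11 of 52 fell (21.2%) and 8 rose (15.4%), near the shares of all tested genes (16.1% and 13.3%). The repressor Tcf7l1 (1.08) and the feedback inhibitor Notum (1.48) rose, while Nkd2 (-1.23) and the receptor Fzd9 (-1.56) fell. In the axon guidance list 20 of 51 fell and 7 rose. Robo2, a receptor for Slit ligands, was at 2364, 2162 and 2093 in WT and at 834, 615 and 906 in KO (log2FC -1.49, SE 0.14, FDR = 4.6e-25), whereas Epha4 rose (1.75).

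Other MEF-associated DEGs of low FDR did not belong to the matrix. Smpd1, the lysosomal acid sphingomyelinase, was at 1852, 1673 and 1851 in WT and at 666, 593 and 741 in KO (log2FC -1.43, SE 0.11, FDR = 2.28e-37). Ptger3, a prostaglandin E receptor, was at 361, 304 and 391 in WT and at 68.3, 53.4 and 113 in KO (4.49-fold lower, log2FC -2.17, SE 0.20, FDR = 2.95e-25). Phyhip (log2FC -1.21) and Sspn (-1.20), a member of the dystrophin complex, followed. Ptger3, Robo2 and Phyhip were MEF-associated by level, yet all had a higher mean in WT at day 5 (779, 3462 and 829.6) than in WT MEFs (164, 402 and 205).

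The 152 raised DEGs of neither class had no member in which KO and WT libraries overlapped. The DEG thresholds, applied to the same libraries, favour such a separation. It was seen in 806 of all 831 raised DEGs and in 20.8% of all tested genes. Aldh2, the mitochondrial aldehyde dehydrogenase, led the 152 genes. It was at 766, 873 and 849 in WT and at 2543, 2984 and 2963 in KO (3.41-fold, log2FC 1.77, SE 0.12, FDR = 2.16e-48). Its means in WT MEFs (6504) and WT ESCs (9109) were both far above every day 7 library, and that in WT at day 5 was 640.1. Exons of Gm42879 overlap it on the other strand. Zfp217, a zinc finger transcription factor, was at 1220.2, 1152 and 1028 in WT and at 2592, 2624 and 2308 in KO (log2FC 1.15, SE 0.08, FDR = 2.89e-38). Nectin2, an adhesion molecule of cell junctions, was at 769, 853 and 738 in WT and at 1770.2, 1966 and 1788 in KO (log2FC 1.23, SE 0.11, FDR = 1.43e-26).

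The other 7 of the 10 genes of lowest FDR had varied roles. Gramd1b, a carrier of cholesterol between membranes, was at 472, 571 and 463 in WT and at 1686, 1551 and 1462 in KO (log2FC 1.64, FDR = 4.33e-22). Genes on the other strand overlap it. B4galt6, which makes lactosylceramide, had a log2FC of 1.47 and Tmem231, a protein of the ciliary transition zone, one of 1.48. Atp1b1, a subunit of the sodium pump, was at 328, 392 and 254 in WT and at 1257, 1296 and 938 in KO (log2FC 1.84, SE 0.20, FDR = 1.73e-18). Slc25a20, which carries acylcarnitine into mitochondria, was 2.31-fold higher. Prex2, an exchange factor for Rac, was at 122, 181 and 168 in WT and at 553, 590.0 and 567 in KO (log2FC 1.86, FDR = 9.97e-17), and Jade2, a subunit of histone acetyltransferase complexes, was 2.27-fold higher. All 10 genes had their KO values above their WT values, as the rule that named them required.

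**Figure D2:**
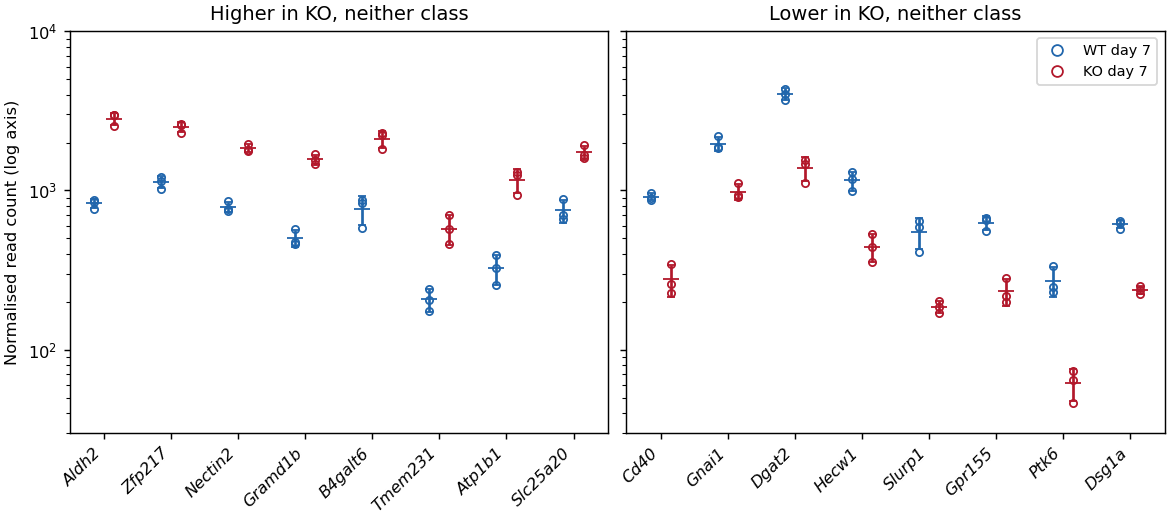
Normalised read counts (log axis) in each day 7 library for the 8 raised and 8 lowered DEGs of neither class with the lowest FDR; open circles are libraries, bars the mean with SD (n = 3), blue WT and red KO. For Aldh2 the WT libraries sit at 766 to 873 and the KO libraries at 2543 to 2984, and for Cd40 the order is turned, at 874 to 969 in WT and 228 to 346 in KO.

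Genes induced by FGF and ERK signalling were raised in more than one class. Of 27 genes of this pathway tested, 8 rose and 3 fell. Spry2, an ERK inhibitor induced by the pathway, belonged to neither class and was at 665, 839.8 and 607 in WT and at 1819, 2229.5 and 1674 in KO (log2FC 1.44, SE 0.17, FDR = 4.7e-16). Its relative Spred1 (1.14) and the ERK-regulated factor Etv1 (1.79) were MEF-associated, and the related factor Etv5 (1.66) was ESC-associated. Dusp6, an ERK phosphatase, was MEF-associated too (1.78, FDR = 0.000127). The study's medium for MEFs contained FGF2, and its media for ESCs and for reprogramming did not. Cell type and medium therefore cannot be told apart in the classes of these genes. The 3 that fell were the FGF family genes Fgf15 (-1.68), Fgf18 (-1.09) and Fgf13 (-1.05). Fgf3, outside this list, fell by a log2FC of -2.15. Of the 17 FGF family genes tested, matched by symbol and not by ligand function, 6 fell, all of them DEGs, and 1 rose.

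Of 48 antiviral and interferon genes tested, 12 rose and 5 fell. Ifitm1, a membrane restriction factor, was at 28.4, 46.3 and 24.7 in WT and at 162, 158 and 112 in KO (log2FC 2.11, FDR = 1.21e-10). Ddx58, the RNA sensor RIG-I, belonged to neither class and rose by a log2FC of 1.15 (FDR = 1.45e-10). Antigen presentation genes were among the lowered, with H2-K1 at 1833, 1776 and 1763 in WT and at 1019, 990.0 and 1066 in KO (log2FC -0.81, FDR = 1.18e-05) and B2m at -0.78. Inflammatory genes fell in 11 of 40 and rose in 1, led by the macrophage growth factor gene Csf1 (log2FC -1.32, FDR = 3.2e-22). In the TNF superfamily 10 of 34 fell and 4 rose, with the death receptor Fas at -1.70.

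The lowered DEGs of neither class numbered 239, and their groups did not overlap in 214. The same separation, which the thresholds favour, was seen in 866 of all 929 lowered DEGs and in 26.6% of all tested genes. Cd40, a TNF receptor best known from antigen-presenting cells, had the lowest FDR of all lowered genes. It was at 969, 900.2 and 874 in WT and at 257, 228 and 346 in KO (3.30-fold lower, log2FC -1.72, SE 0.12, FDR = 1.45e-40). Its means were 13.1 in WT MEFs and 9.62 in WT ESCs, against 1359 and 1638 in WT at days 3 and 5. Dgat2, which catalyses the last step of triglyceride synthesis, was at 4041, 3683 and 4362 in WT and at 1474, 1115 and 1558 in KO (log2FC -1.54, SE 0.14, FDR = 2.3e-25), with 85.3 in WT MEFs, 6607 in WT at day 5 and 62.4 in WT ESCs. Hecw1, a ubiquitin ligase, was at 1302, 988 and 1178 in WT and at 532, 356 and 441 in KO (log2FC -1.39, FDR = 9.23e-25). Gnai1, an inhibitory G protein subunit, was at 2183, 1848 and 1862 in WT and at 1111, 904 and 931 in KO, just inside the fold threshold (SE of log2FC 0.09, FDR = 3.38e-28).

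Several of these genes are known from stratified epithelia. Slurp1, a secreted protein of keratinocytes, was at 413, 645 and 592 in WT and at 186, 169 and 202 in KO (log2FC -1.57, SE 0.16, FDR = 3.12e-21). Ptk6, a kinase of differentiating epithelium, was at 249, 229 and 336 in WT and at 73.3, 46.4 and 64.5 in KO (4.43-fold lower, log2FC -2.15, FDR = 2.98e-17). Both were at 0 in WT MEFs and WT ESCs, where a count of 0 allows up to 3 counts. Dsg1a, a desmosomal cadherin, fell by a log2FC of -1.37. It has close copies, Dsg1b and Dsg1c, among which reads may be divided. Krt6a was at 4984, 7615 and 7737 in WT and at 2170 to 2454 in KO (log2FC -1.53, FDR = 4.09e-09), and it too has a close copy, Krt6b (-1.58). Of 34 keratinocyte genes tested, 14 fell and 0 rose (median log2FC -0.70), 9 of them DEGs. WT replicate 1 was the lowest WT library for Slurp1 and Krt6a.

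In a wider list of 36 epithelial genes, 6 fell (16.7%) and 4 rose (11.1%), near the shares of all tested genes (16.1% and 13.3%). Krt18 of simple epithelia was higher in all KO libraries (log2FC 1.92, SE 0.51, FDR = 0.00133), as was the epithelial factor Grhl2 (1.24). The keratin genes Krt8 (log2FC -0.27, FDR = 0.710), Krt19 (0.10, FDR = 0.881) and Krt7 (-0.13, FDR = 0.905) did not pass. The tight junction gene Cldn3 was lower (-1.14, FDR = 0.00397), and so were the desmosomal genes Pkp1 (-0.73) and Dsc2 (-0.93).

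Lists of neuronal and channel genes, counted here over all classes, also held lowered members. Of 43 neural and synaptic genes tested, 16 fell and 3 rose (median log2FC -0.53). Tubb3, the neuronal beta-tubulin, was at 9315, 7952 and 8719.7 in WT and at 3316, 2776 and 3790.0 in KO (log2FC -1.40, SE 0.22, FDR = 4.08e-09). Elavl4, a neuronal RNA-binding protein, was at 137, 117 and 124 in WT and at 45.2, 49.9 and 49.0 in KO (log2FC -1.39, FDR = 6.69e-09), and the MEF-associated growth cone protein gene Gap43 fell by a log2FC of -2.07 (FDR = 1.22e-10). Among sodium and potassium channel genes 11 of 38 fell and 4 rose. Kcnq1, a potassium channel, was at 47.7, 25.2 and 35.0 in WT and at 6.02, 2.63 and 1.82 in KO (log2FC -3.39, SE 0.62, FDR = 9.22e-07). Its antisense partner Kcnq1ot1 overlaps it.

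Further members of neither class had metabolic or immune roles. Gpr155, a lysosomal cholesterol sensor, was at 670.4, 558 and 651 in WT and at 217, 199 and 282 in KO (log2FC -1.43, FDR = 1.44e-19). Txnrd3, a thioredoxin-glutathione reductase, was 2.02-fold lower, and the fold threshold placed it just inside. Nos2, the inducible nitric oxide synthase, was at 374, 416 and 519.6 in WT and at 173, 196 and 252 in KO (log2FC -1.08, FDR = 6.22e-06). C530008M17Rik had the largest drop among genes with a mean of at least 100 (5.21-fold lower, log2FC -2.38, FDR = 1.53e-12). The 10 rows with far higher values in WT replicate 1 alone also belong to this class. Among them CT010467.1 was at 541292, 51287 and 57643 in WT and at 40997, 132264 and 45179 in KO, so that the groups overlapped. Without them 229 lowered DEGs of neither class were left, and without WT replicate 1 altogether 192.

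Levels at WT day 5 separated the raised from the lowered genes. The day 5 libraries took no part in the day 7 contrast or in the classes. The WT MEF and WT ESC libraries they were set against, however, also defined the classes. A gene of neither class that departs from MEFs at day 5 thus tends to depart from ESCs too. All tested genes, given for comparison, include genes without a change and are not a matched set. Of the 239 lowered DEGs of neither class, 172 (72.0%) were above both WT MEFs and WT ESCs at WT day 5 (FDR < 0.05, log2FC > |1| in each), against 12.6% of all tested genes of neither class, and 15 were below both. Of the 152 raised, 104 (68.4%) were below both at WT day 5, against 9.98% of all tested genes of neither class, and 14 were above both. Over all classes, 9.95% of tested genes were above both and 8.73% below both. None of the 10 rows high in WT replicate 1 was above both. Across 11 alternative fits and omitted libraries the shares ran from 71.6 to 80.8% and from 62.5 to 75.2%. Day 5 and day 7 libraries may share cultures or preparation, on which the labels are silent.

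**Figure D3:**
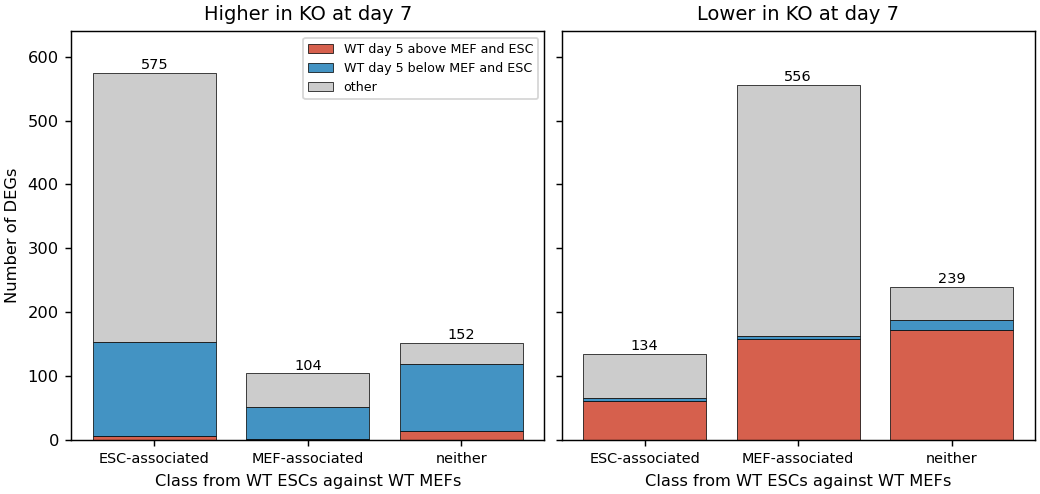
Number of DEGs at day 7 by class, left higher and right lower in KO, split by the level in WT cells at day 5: above both WT MEFs and WT ESCs (red), below both (blue) or neither (grey). Blue fills 104 of the 152 raised genes of neither class and red fills 172 of the 239 lowered ones.

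The same comparison was also read from the side of the expression pattern. These counts include the genes above and are not independent evidence. Of all 2091 tested genes above both MEFs and ESCs at WT day 5, 390 were lower in KO at day 7 (18.7%) and 21 higher (1.00%), with a median log2FC of -0.53. Of 1835 genes below both, 301 were higher (16.4%) and 26 lower (1.42%), with a median of 0.46. Of the 17094 genes of neither pattern, 509 were higher and 513 lower, with a median of -0.03. Within the MEF-associated class, 158 of the 526 genes with a day 5 excess were lower, against 556 of all 6191 tested. Within the ESC-associated class 147 of the 383 genes with a day 5 dip were higher (38.4%), against 575 of all 5429 tested.

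**Figure D4:**
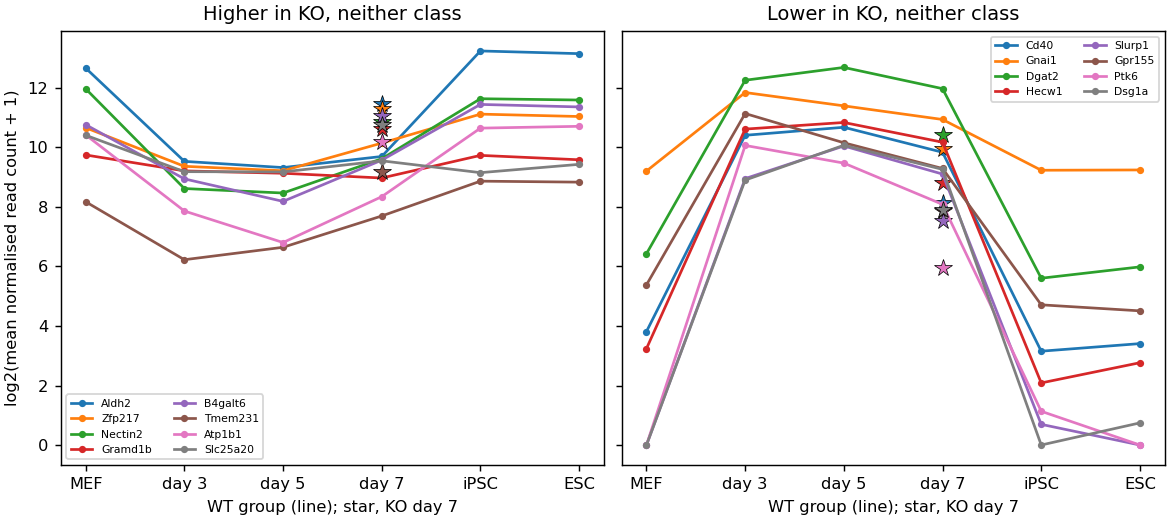
Mean normalised read count, as log2 of the mean plus 1, in WT MEFs, days 3, 5 and 7, iPSCs and ESCs (lines) for the 8 raised (left) and 8 lowered (right) DEGs of neither class with the lowest FDR; stars give the KO mean at day 7. Most raised genes dip between MEFs and ESCs, as for Nectin2 (353 at day 5). The lowered genes form an arch, as for Hecw1 (1832 at day 5). The stars lie above the line at day 7 for raised genes and below it for lowered ones, as the choice of genes required.

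Some of the DEGs that moved against their class had the same patterns. Of the 104 raised MEF-associated genes, 50 (48.1%) were below both ends at WT day 5, against 8.30% of all tested MEF-associated genes. Tmem263, a transmembrane protein, was at 358, 501 and 452 in WT and at 1043, 1142 and 1046 in KO (log2FC 1.30, SE 0.12, FDR = 3.76e-25), with a mean of 158 in WT at day 5. Atp1b2, another sodium pump subunit, rose by 2.28 and Adam19, a sheddase, by 1.57 on the log2 scale. The imprinted gene Peg10 was at 2021, 2761 and 3853 in WT and at 6542, 6881 and 7838 in KO (log2FC 1.30, FDR = 6.46e-08). Snx20, a sorting nexin of blood cells, was 4.05-fold higher and is one of the 54 without such a dip. Of the 134 lowered ESC-associated genes, 60 (44.8%) were above both ends, against 6.93% of all tested ESC-associated genes. Aadac, an arylacetamide deacetylase, was at 457, 442 and 443 in WT and at 173, 131 and 181 in KO (log2FC -1.47, SE 0.15, FDR = 2.45e-20), while its means were 0 in WT MEFs, 1112 at WT day 5 and 4.89 in WT ESCs. Fgf3 and Chdh, a choline dehydrogenase (-1.39), had the same form, and Dtna, a dystrophin-associated protein (-1.41), did not.

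Of 50 imprinted genes tested, 17 fell (34.0%), 3 rose and 30 did not pass. Zdbf2 was among the 10 raised genes of lowest FDR, at 157, 136 and 175 in WT and 520.1, 659 and 642 in KO (log2FC 1.96, SE 0.14, FDR = 7.9e-40). Dlk1 (-1.60) and Igf2 (-1.01), growth regulators of the embryo, fell, and WT replicate 1 was the highest library for both. Glycolytic genes rose in 12 of 26 and fell in 4, by small amounts except for the neuronal-type glucose transporter Slc2a3 (log2FC 1.30) and the muscle-type phosphofructokinase Pfkm (1.05). Respiratory chain genes showed 12 of 63 lower, a share near the 16.1% of all genes, and 3 higher (4.76%, against 13.3% of all genes), with Cox7a1 (1.58) and Ndufa4l2 (1.29) as the DEGs. In cholesterol and fatty acid synthesis 5 of 32 fell (15.6%, near the 16.1% of all genes) and 0 rose. Amino acid and one-carbon genes were mixed, with 17 of 46 lower and 13 higher.

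**Figure D5:**
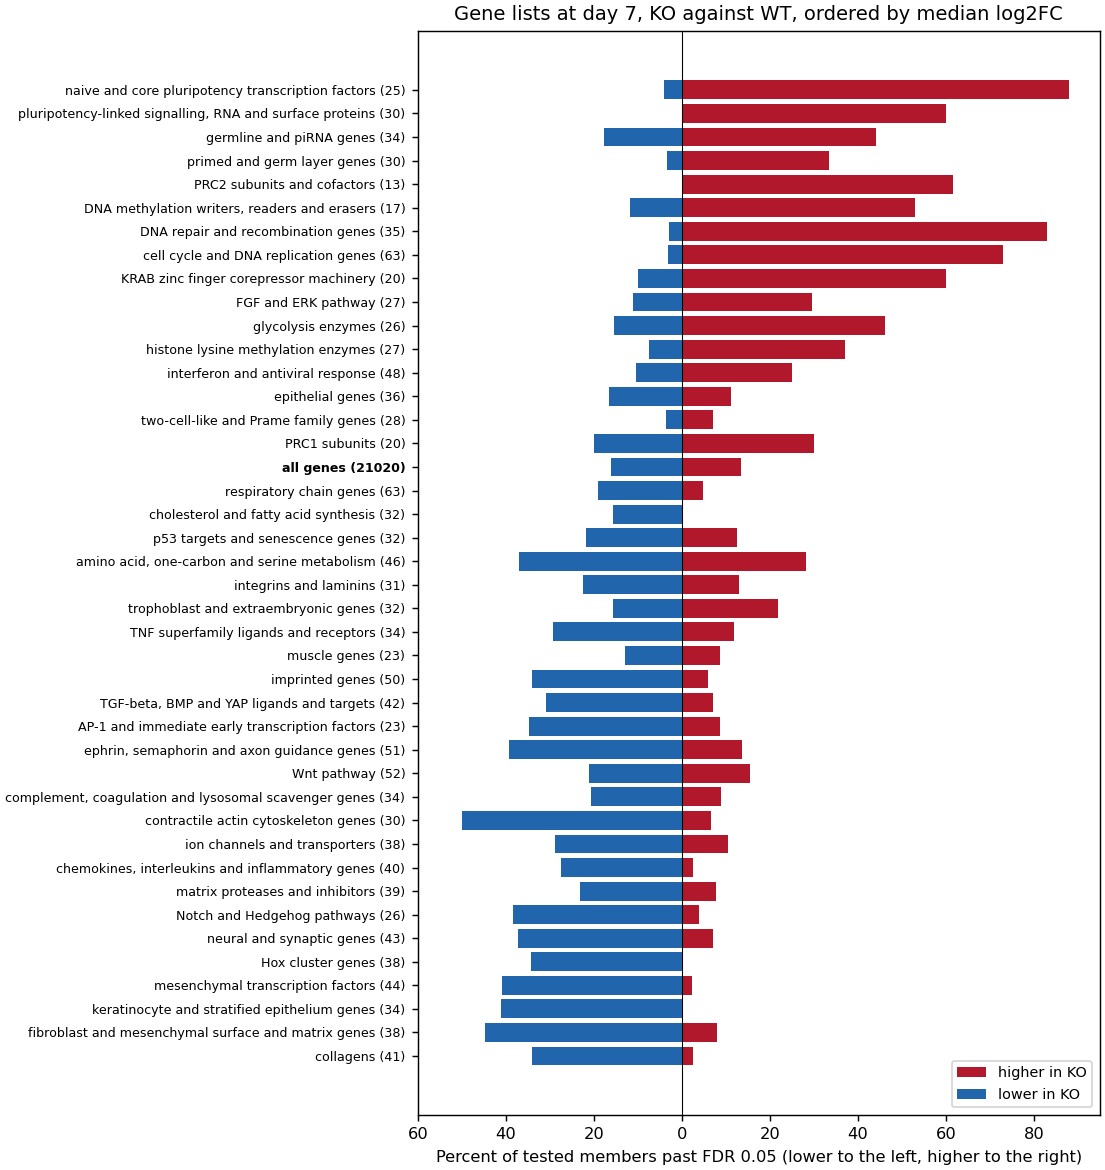
Percent of tested members of each gene list past FDR 0.05 at day 7, higher in KO to the right (red) and lower to the left (blue), ordered by the median log2FC of the list; the number tested is in brackets. Pluripotency factors (88.0% higher) lie at the top and collagens (34.1% lower) at the bottom, with all genes (13.3% higher and 16.1% lower) between them.

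Of the remaining lists, p53 and senescence genes had 7 of 32 lower (21.9%) and 4 higher (12.5%), near the 16.1% and 13.3% of all genes. Cdkn1a (p21) was at 17579, 17164 and 19151 in WT and 11227, 10666 and 11974 in KO (log2FC -0.67, FDR = 1.89e-05). AP-1 and immediate early factors had 8 of 23 lower and 2 higher, among them Atf3 (-1.18). Histone lysine methylation enzymes had 10 of 27 higher and 2 lower, with Kdm3a the DEG (1.06). Integrins and laminins (7 lower and 4 higher of 31), trophoblast genes (5 and 7 of 32), complement and lysosomal scavenger genes (7 and 3 of 34), muscle genes (3 and 2 of 23) and 2-cell-like and Prame genes (1 and 2 of 28) showed no direction shared by most members.

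Markers of other cell types were checked in the same libraries. All 12 pluripotent stem cell markers rose, their sum standing at 14367 to 19278 in WT, 43503 to 53738.5 in KO and 160584 in WT ESCs. Keratinocyte markers summed to 27702 to 45298 in WT and to 20643 to 26835 in KO, and 5 of 11 fell. Neural and glial markers summed to 32841 to 36053 in WT and to 21793 to 23750.1 in KO, and 4 of 12 fell. Both sums were higher in WT at day 5 (43889 and 41698) than in WT MEFs (610 and 4075). Endothelial markers summed to 2074 to 2360.2 in WT and to 4310.1 to 4648 in KO, with no overlap, against 1495 in WT ESCs and 963 in WT MEFs. Of the 12, 4 rose and 0 fell (median log2FC 1.24), among them Tie1 (log2FC 1.55), an endothelial receptor kinase. The defining genes Cdh5 and Emcn stayed near 0, Cdh5 at 2.01 to 4.12 in WT and Emcn at 0 in all WT libraries and 2 of the KO libraries. Of the 8 macrophage and blood markers tested, 2 rose, with Ptprc at or under 14.5 in every library, and 0 of 7 skeletal muscle markers passed. The part of mixed cell types in the results was not tested.

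Members that moved together were also compared for letters in the 250 bases before their annotated start sites, from RefSeq promoters of GRCm38.p6 (matched by symbol for 145 of the 239 lowered and 103 of the 152 raised genes of neither class). The AP-1 motif TGANTCA, searched on both strands, occurred in 10.2% of the 186 promoters of lowered genes of neither class, in 2.24% of the 134 of raised genes of neither class and in 5.02% of the 16310 promoters of all tested genes. The share was 9.57% for raised MEF-associated, 5.48% for raised ESC-associated, 7.10% for lowered MEF-associated and 5.77% for lowered ESC-associated genes, so high shares were seen on both sides. Shares for the KLF motif GGGNGTGG were 22.0%, 22.4% and 20.8%, and for the TEAD motif GGAATG they were 10.8%, 16.4% and 11.2%. In the same order, the MYC E-box CACGTG occurred in 6.45%, 5.22% and 7.78%, the CRE motif TGACGTCA in 2.69%, 0% and 2.37% and the POU octamer ATGCAAAT in 1.08%, 0% and 1.28%. In 3 lowered genes of neither class with a match, taken in order of FDR among the promoters that could be shown, the letters around the first match read as follows, on the strand of the gene and with the match in capitals.
Clec18a: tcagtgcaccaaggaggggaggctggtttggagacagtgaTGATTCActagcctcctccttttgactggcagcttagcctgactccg
Tspan15: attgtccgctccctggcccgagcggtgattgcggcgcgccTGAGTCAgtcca
Acsl6: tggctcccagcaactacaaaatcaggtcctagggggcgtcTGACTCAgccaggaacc
They lie at chr8:111081723-111081809 (minus strand), chr10:62231219-62231270 (minus strand) and chr11:54303767-54303823 (plus strand). Clec18a was at 24.3, 38.3 and 27.8 in WT and at 4.02, 4.38 and 3.63 in KO (log2FC -2.91, FDR = 1.76e-08). The tetraspanin Tspan15 (-1.32) and Acsl6, an acyl-CoA ligase (-1.42), followed. A match is a description of letters and not of binding.

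The effect of KO at day 7 was finally tested against that at day 5 within the same model. It differed for 270 genes (FDR < 0.05, difference in log2FC > |1|). For 193 the KO effect was more positive at day 7 and for 77 more negative, which is 1.17% and 0.468% of the 16447 genes tested. At day 5 itself 0.808% of 17694 tested genes were DEGs upward and 0.379% downward. Without KO replicate 2 the number that differed between days was 161, and by edgeR it was 156. Of the 193, 153 were DEGs at day 7 and 4 at day 5, and 100 were below both MEFs and ESCs at WT day 5. Of all genes tested at day 7, 8.73% were below both and 9.95% above both. Of the 77, 65 were DEGs at day 7 and 3 at day 5, and 47 were above both. The WT day 5 libraries enter both the difference between days and these patterns, so the overlap is not independent evidence. Pfkm had the lowest FDR, with a log2FC of -0.67 at day 5 and 1.05 at day 7 (difference 1.72, SE 0.18, FDR = 7.84e-17). Apoe, a lipid carrier, was at 152, 265 and 144 in WT and at 866, 941 and 693 in KO at day 7 (log2FC 2.15), after -0.23 at day 5 (difference 2.38, FDR = 2.69e-10). Klf5 (0.01 at day 5), Jarid2 (0.22) and Pdzd4 (-0.66) completed the 5 positive genes of lowest FDR. On the negative side were Trabd2b, an inhibitor of Wnt ligands (difference -1.06, FDR = 2.29e-09), Gucy2e, Hecw1, Ogfrl1 and Ptger3, whose log2FC went from -0.82 to -2.17. Among genes higher at both days, Suz12 went from 0.51 to 1.17 (difference 0.66, SE 0.09, FDR = 2.51e-10), and Esrrb stood at 1.14 and 1.12 (difference -0.02, SE 0.16).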

How the data were processed

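Polyadenylated RNA of sorted cells was sequenced as stranded single-end libraries. According to the submitters' processing notes and the study's methods, reads were checked with FastQC, trimmed with cutadapt, aligned with STAR to GRCm38.p6 and counted with Rsubread; the annotation release and the strand setting are not given in the sources used here. The deposited counts are whole-number reads per gene, not normalized by the authors, for 21442 genes and 36 libraries; 0 sample columns were left unmapped. The authors' normalised and log tables, the latter corrected for preparation date, and their tables of fold changes and p-values per contrast were not used.

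All 36 libraries entered 1 DESeq2 model (version 1.42.0, R 4.3.3) with 12 groups, median-ratio size factors, Wald tests and default independent filtering. DEGs had a Benjamini-Hochberg FDR below 0.05 and an unshrunken log2FC beyond 1 in size. "Rose" and "fell" mean FDR below 0.05 with any fold. ESC- and MEF-associated genes came from WT ESCs against WT MEFs at these thresholds. Symbols and overlaps came from GENCODE M21 (21390 IDs matched). Comparisons were tested on simulated data. WT and KO libraries with the same replicate number deviated together from their group means (r = 0.35, 0.22 and 0.44 over 13846 genes), so a fit blocked by number was run. The alternatives were edgeR 4.0.16, TMM scaling, fewer groups, other filters and thresholds, and omission of each library.

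Named genes were the targeted gene, the 10 DEGs of lowest FDR in each direction whose groups did not overlap, the same among DEGs of neither class, the 5 of largest change with a mean of at least 100, up to 4 members per list and direction, and the 5 of lowest FDR for the day 7 and day 5 difference; others were chosen after their values were seen. The 42 gene lists and 7 marker lists, and the comparison itself, were chosen with earlier results of these data known. Intervals and floors (3 counts) cover counting error only. A few genes that meet this rule are not reported here.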

Additional observations from a re-analysis of the deposited data

Results flagged for a closer look

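By the test of the difference itself, the log2FC of KO over WT was not the same on days 5 and 7 in 270 genes. The 5 genes of lowest FDR on the positive side had differences in log2FC, day 7 minus day 5, of 1.72 (Pfkm), 1.36 (Klf5), 1.21 (Jarid2), 2.66 (Pdzd4) and 2.38 (Apoe). On the negative side the differences were -1.06 (Trabd2b), -1.04 (Gucy2e), -1.06 (Hecw1), -1.08 (Ogfrl1) and -1.35 (Ptger3). In every day 7 library of KO these genes lay beyond the WT libraries in the direction of their day 7 effect.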

How the results depend on the processing

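When 1 library was left out, DEGs ranged from 1342 to 1744, raised from 684 to 846, lowered from 658 to 933, those of neither class from 120 to 164 and from 161 to 263, and the genes differing from day 5 from 161 (without KO replicate 2) to 362. The replicate block gave 1633 DEGs, 1553 of them called in the same direction as before, and changed no count beyond 1.5 times. With edgeR 156 genes differed between days and 1717 were DEGs, 1609 of them shared. FDR alone gave 6177 genes, 2803 higher and 3374 lower, 1072 and 1254 of neither class, and 961 differing between days. A fold threshold inside the Wald test left 132, with 117 higher and 15 lower, 10 and 7 of neither class, and 1 differing between days; the share of raised calls was then 88.6% against 47.2%. TMM scaling moved the median log2FC of all genes from -0.04 to 0.00. Of 3190 values of named genes under alternatives, 3055 kept their direction and side of the thresholds, 102 fell short of them, 33 newly passed and 0 reversed. Cells were sorted and pooled, so composition is not resolved.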
